A study of Mus musculus with 8 samples.

Results

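The PGC-1 coactivators, the PPAR and ERR nuclear receptors and their partners NRF1 and PERM1 set the level of genes for fat oxidation and mitochondrial respiration in heart muscle. Here 10 genes of this group were followed in mouse hearts that lack LRPPRC, a protein that binds mitochondrial RNA. The 10 genes are Ppargc1a, Ppargc1b and Perm1 (coactivators), Ppara, Ppard and Pparg (peroxisome proliferator-activated receptors), Esrra, Esrrb and Esrrg (estrogen-related receptors), and Nrf1 (nuclear respiratory factor 1). They were taken by name from the 50599 gene records of each library, and all 10 had enough reads to be tested. RNA came from hearts of male C57BL/6N mice at 12 weeks of age, in 8 libraries of total RNA sequenced after removal of cytoplasmic rRNA, each from 1 animal. The 4 libraries labelled wildtype came from control mice that carried the floxed Lrpprc alleles (loxP/loxP) without Cre. The 4 libraries labelled Lrpprc knockout came from mice with the same floxed alleles plus Cre, which removed the gene in heart and skeletal muscle but not in the rest of the body. The promoter that drove Cre is not given in the sources used here, and the other cells of the heart were sequenced together with the cardiomyocytes.

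As background, PGC-1α and PGC-1β do not bind DNA themselves. They are recruited by DNA-bound factors, among them PPARα, the ERRs and NRF1, and raise transcription of nuclear genes for fatty acid oxidation, the citric acid cycle and the respiratory chain. PPARα is activated by fatty acids and pairs with RXR receptors, ERRα and ERRγ act without a known natural ligand, and NRF1 drives genes for respiratory chain subunits and for mitochondrial transcription. PERM1 is a muscle protein induced by PGC-1 and the ERRs.

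The upstream sequences of 4 genes are shown because these genes include the falls of Perm1, Ppara and Ppargc1a and the single rise, that of Pparg. Each is the exon-free stretch of the 250 bases before a RefSeq transcript start (GRCm38.p6), read 5′ to 3′ on the gene's strand. Capitals mark a match to a nuclear receptor half-site, AGGTCA or its reverse complement, in Perm1 and to an NRF1 site, GCGCA and GCGC with any base between them, in Ppara.
Perm1, chr4:156215677-156215867, plus strand: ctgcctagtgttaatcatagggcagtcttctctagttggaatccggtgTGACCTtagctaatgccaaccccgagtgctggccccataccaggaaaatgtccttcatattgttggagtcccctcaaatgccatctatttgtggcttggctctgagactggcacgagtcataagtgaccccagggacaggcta
Ppara, chr15:85735714-85735775, plus strand: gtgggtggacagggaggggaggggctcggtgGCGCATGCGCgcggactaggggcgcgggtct
Ppargc1a, chr5:51567727-51567975, minus strand: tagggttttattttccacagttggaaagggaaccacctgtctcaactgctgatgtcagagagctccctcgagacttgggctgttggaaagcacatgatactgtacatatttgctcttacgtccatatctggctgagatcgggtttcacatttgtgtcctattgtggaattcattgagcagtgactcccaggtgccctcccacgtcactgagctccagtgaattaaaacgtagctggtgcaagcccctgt
Pparg, chr6:115421816-115422065, plus strand: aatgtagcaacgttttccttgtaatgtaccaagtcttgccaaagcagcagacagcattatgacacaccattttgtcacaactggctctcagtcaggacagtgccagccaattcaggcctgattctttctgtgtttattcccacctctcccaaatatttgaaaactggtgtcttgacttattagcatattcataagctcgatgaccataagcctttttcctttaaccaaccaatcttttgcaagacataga

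The Perm1 match lay 202 to 197 bases before its RefSeq start, and the Ppara match lay 31 to 22 bases before its start. Both other RefSeq starts of Pparg had a half-site, 28 to 23 and 9 to 4 bases before them, inside stretches annotated as Pparg exons, which are not shown. The windows of Ppargc1a and of the Pparg start shown here held none of the 5 motifs searched. These were AGGTCA, TCAAGGTCA (an ERR element, which contains AGGTCA), the PPAR direct repeat (AGGTCA repeated after 1 base of any kind), the NRF1 site and TGACGTCA (a cyclic AMP response element), each on both strands. Of the 32851 upstream windows of 250 bases in the RefSeq table, 14.0% held AGGTCA, 3.74% the NRF1 site, 1.55% TGACGTCA, 0.387% TCAAGGTCA and 0.0335% the direct repeat. A match is only a match of letters in this window. The upstream GC content was 76.4% in Ppara, 51.2% in Perm1, 48.0% in Ppargc1a and 40.8% at the Pparg start shown, beside a median of 52.4% over all windows. Both other Pparg starts had 82.4% and 63.6%. The Ppargc1a window belongs to the upstream of its start regions. Its transcripts start at positions that span 13855 bases, and the counts used below pool all of them.

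The libraries held 35218541 to 47743376 expected counts. Lrpprc itself fell 6.35-fold, from 3665 ± 216 (SD, n = 4) to 577 ± 48.6 (SD, n = 4) normalised counts (log2 fold change -2.67; DESeq2 adjusted p = 3.77e-153). Mitochondrial rRNA took 44.0% to 46.9% of counts in the wildtype and 65.6% to 67.8% in the knockout. Knockout replicate 3 stood apart from the other knockouts on the second principal component (68.0 against -27.2 to -22.4). Of 6 cardiomyocyte markers, 5 (Myh6, Tnni3, Actc1, Ryr2 and Pln) fell, and their summed count was 900189 to 1005680 in the wildtype and 416539 to 542957 in the knockout. The sixth, Tnnt2, had a log2 fold change of -0.15. Of 6 macrophage markers 5 were higher (all but Adgre1; 3 by edgeR), with a sum of 2287 to 2924 in the wildtype and 2600 to 6148 in the knockout, and of 6 fibroblast markers the collagens Col1a1, Col1a2 and Col3a1 were higher (sum 17177 to 17913, then 16247 to 53538). Without wildtype replicate 1 or 2, 3 and 2 macrophage markers were called, and without knockout replicate 2 or 4, 1 each. Of 6 endothelial and 5 tested white adipocyte markers, 0 passed by DESeq2 or by edgeR (which did not test Retn, a white adipocyte marker), and 3 and 0 had an unadjusted p under 0.05 in DESeq2. Without knockout replicate 1, 3 endothelial markers were called lower, and without knockout replicate 3, 2 were called higher. Myh11 and Acta2 of 3 smooth muscle markers fell, Myl7 and Sln of 5 atrial markers fell while Nppa was higher, and Cidea of 2 tested brown adipocyte markers was higher. Tnnt3 of 2 tested skeletal muscle markers was higher by DESeq2 and was not tested by edgeR. Its means were only 2.85 counts in the wildtype and 18.6 in the knockout, and Myh1, the other, had a mean of 2.24. The part of these shifts in the results below was not tested, and in whole hearts fewer cells of a type and less RNA per cell cannot be told apart.

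The main comparison asked how the 10 regulators differed between knockout and wildtype hearts. By DESeq2, 6 of them fell (Perm1, Ppargc1b, Ppara, Ppargc1a, Esrrg and Ppard), Pparg rose, and Esrra, Esrrb and Nrf1 did not pass an adjusted p of 0.05. For comparison, 33.7% of the 19959 genes tested passed, 15.5% as lower and 18.2% as higher. All 10 regulators were well expressed, with a mean of 100 counts or more, and among the 10441 tested genes at that level 47.7% passed, 21% as lower. The median log2 fold change was -0.51 over the 10 regulators and 0.01 over all genes tested. With edgeR, which called 39.7% of its genes, Esrrb passed as well, so that 7 fell and 1 rose. Groups did not overlap in 7 of the 10, against 33% of all genes tested.

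The counts depended on how libraries were scaled. With total-count scaling the median of 15741 genes shifted by -0.30 on the log2 scale, and 8 regulators were called lower and 0 higher. With totals that leave out mitochondrial rRNA the median shifted by 0.43, and 3 (Perm1, Ppargc1b and Ppara) were called lower and 2 (Pparg and Esrra) higher. Over all genes the calls were split into 3628 higher and 3100 lower in the DESeq2 fit, into 1924 and 5912 with total counts, and into 7917 and 1103 without mitochondrial rRNA. Relative to that median the regulators hardly moved between these scalings. A change of scaling moves all genes by nearly the same amount, so this had to follow and is no check of the calls. Perm1 lay at -1.14, -1.14 and -1.13 under DESeq2's own scaling, total counts and totals without mitochondrial rRNA, Ppargc1a at -0.65, -0.66 and -0.66, and Pparg at 0.54, 0.53 and 0.53.

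**Figure D1:**
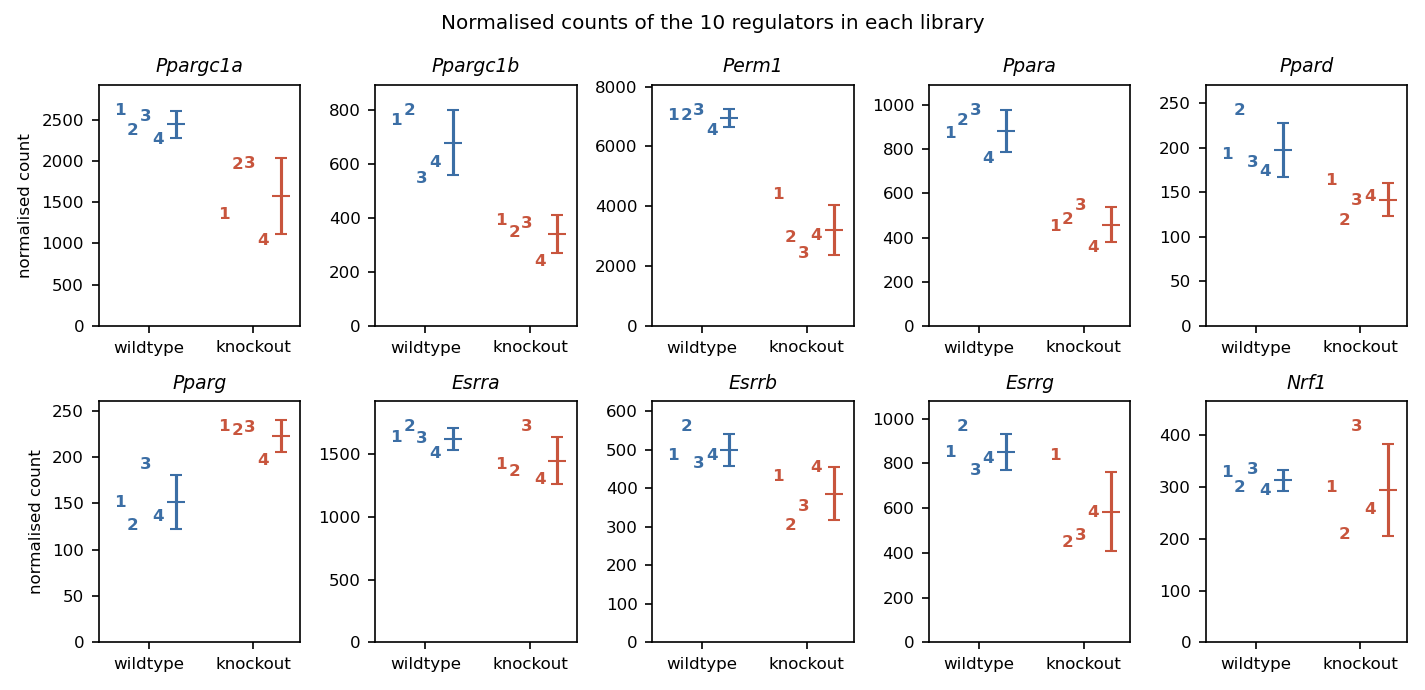
Normalised counts (y axis, from 0, own scale in each panel) of the 10 regulators in the 4 wildtype and 4 knockout libraries; digits are replicate numbers, and the bar beside them is the mean with its SD. The groups are apart in 7 panels and overlap for Esrra, Esrrg and Nrf1. The knockout libraries spread more than the wildtype libraries for Ppargc1a, Perm1, Esrra, Esrrb, Esrrg and Nrf1.

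Perm1 (ENSMUSG00000078486.3, chromosome 4, 156215868 to 156221307, plus strand) had the largest fall of the 10 with all 8 libraries. Without knockout replicate 3, Ppargc1b and Ppara fell more. Normalised counts of Perm1 were 7028, 7029, 7205 and 6526 in the wildtype hearts, in the order of their replicate numbers, and 4395, 2972, 2421 and 3010 in the knockout hearts. Every knockout library lay below every wildtype library, with knockout replicate 1 nearest to them and replicate 3 farthest. The mean went from 6947 ± 293 (SD, n = 4) to 3199 ± 841 (SD, n = 4), that is, it fell by 53.9% (log2 fold change -1.12, SE 0.170; DESeq2 adjusted p = 7.96e-10). Of all genes tested, 8.55% had a lower log2 fold change, and 98.3% had a lower mean count. The mean went down in all alternatives tried, and the adjusted p stayed under the threshold in all of them.

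Ppargc1b (ENSMUSG00000033871.14), which encodes PGC-1β, had the next largest fall with all 8 libraries. Ppara fell more than Ppargc1b without wildtype replicate 1 or 2 and without the correction for transcript length. Counts of Ppargc1b were 762, 800, 549 and 606 in the wildtype and 393, 348, 381 and 239 in the knockout. The lowest wildtype count was above the highest knockout count. The mean fell by 50.0%, from 679 ± 121 to 340 ± 69.9 (SD, n = 4 each; log2 fold change -1.0, SE 0.192; DESeq2 adjusted p = 2.11e-06). This gene hosts the microRNA gene Mir378a on the same strand, and gene-level counts do not separate the microRNA from its host.

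Ppargc1a (ENSMUSG00000029167.13, chromosome 5, 51454250 to 51567726, minus strand) encodes PGC-1α, the coactivator that responds to exercise, cold and fasting in muscle and other tissues. Wildtype counts were 2611, 2371, 2533 and 2252, and knockout counts were 1351, 1951, 1965 and 1031. The groups were apart, but the knockouts fell into a higher pair, replicates 2 and 3, and a lower pair, replicates 1 and 4. The mean fell by 35.6% (95% interval 15.7% to 50.7%), from 2442 ± 161 to 1574 ± 461 (SD, n = 4 each; log2 fold change -0.63, SE 0.197; DESeq2 adjusted p = 0.00573, edgeR adjusted p = 0.0150). Without knockout replicate 4 the log2 fold change was -0.48 and without knockout replicate 3 it was -0.76, and the call held each time. With totals that leave out mitochondrial rRNA it did not (log2 fold change -0.22; DESeq2 adjusted p = 0.372).

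Ppara (ENSMUSG00000022383.13, chromosome 15, 85734983 to 85802819, plus strand), the PPAR that drives fatty acid oxidation in the heart, also fell. It had counts of 872, 932, 976 and 757 in the wildtype and 451, 482, 544 and 353 in the knockout. All knockouts lay below all wildtype libraries. The mean fell by 48.3%, from 884 ± 94.9 to 457 ± 79.8 (SD, n = 4 each; log2 fold change -0.95, SE 0.155; DESeq2 adjusted p = 1.31e-08), and the call held in all alternatives tried.

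Pparg (ENSMUSG00000000440.12, chromosome 6, 115360951 to 115490399, plus strand), best known as the PPAR of fat cells and also present in macrophages and endothelium, was the one regulator that rose. Its counts were 150, 126, 192 and 136 in the wildtype and 233, 229, 231 and 197 in the knockout. The lowest knockout, replicate 4, was only just above the highest wildtype, replicate 3. The mean rose by 46.9% (95% interval 16.2% to 85.7%), from 151 ± 29.1 to 222 ± 17.2 (SD, n = 4 each; log2 fold change 0.55, SE 0.172; DESeq2 adjusted p = 0.00563, edgeR adjusted p = 0.0186), but the call was lost with total-count scaling (0.26; DESeq2 adjusted p = 0.243). The white adipocyte sum ranged from 63.5 to 214 in the wildtype and from 22.7 to 180 in the knockout, with Adipoq at a mean of 20.9 and 15.2 counts, and the endothelial sum from 13579 to 14646 and from 9476 to 16753. The macrophage sum was higher in knockout replicates 2 and 4 (6148 and 5329) than in replicates 1 and 3 (3163 and 2600), while Pparg was at 229, 197, 233 and 231 in these libraries. In knockout replicate 3 the macrophage sum lay within the wildtype range. The brown adipocyte sum was 267 to 317 in the wildtype and 409 to 822 in the knockout, without overlap, through Cidea (mean 265 and 538 counts). Ucp1 had means of 25.5 and 9.21, the latter from knockout replicate 1 alone (36.9 counts, and 0 in replicates 2, 3 and 4). The part of any of these cell types in the rise of Pparg was not tested.

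Ppard (ENSMUSG00000002250.15, chromosome 17, 28232700 to 28301474, plus strand), the PPAR found in most tissues, had counts of 193, 242, 183 and 174 in the wildtype and 163, 119, 141 and 145 in the knockout. The highest knockout was just below the lowest wildtype library. The mean fell by 27.9%, from 198 ± 30.5 to 142 ± 18.4 (SD, n = 4 each; log2 fold change -0.47, SE 0.173; DESeq2 adjusted p = 0.0222, edgeR adjusted p = 0.0262). This call depended on the correction for transcript length, since the log2 fold change was -0.18 without it (DESeq2 adjusted p = 0.471). It was also lost when wildtype replicate 1 or 2 or knockout replicate 2 or 4 was left out (DESeq2 adjusted p = 0.0560, 0.121, 0.0945 and 0.0577), with a replicate block (-0.47; DESeq2 adjusted p = 0.109) and with totals that leave out mitochondrial rRNA (-0.05; DESeq2 adjusted p = 0.860).

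Of the 3 ERRs, 1 was called by DESeq2. Esrrg (ENSMUSG00000026610.13, chromosome 1, 187608791 to 188214885, plus strand) encodes ERRγ, which is prominent in heart muscle. Its counts were 847, 963, 769 and 822 in the wildtype and 834, 448, 478 and 580 in the knockout. Knockout replicate 1 lay among the wildtype libraries and the other knockouts lay below all of them. The mean fell by 31.2%, from 850 ± 82.0 to 585 ± 175 (SD, n = 4 each; log2 fold change -0.54, SE 0.196; DESeq2 adjusted p = 0.0204, edgeR adjusted p = 0.0323). Leaving out knockout replicate 1 gave -0.76 (DESeq2 adjusted p = 8.44e-07). The call was lost without wildtype replicate 1 or 2 or knockout replicate 2 or 4 (DESeq2 adjusted p = 0.0559, 0.0907, 0.0842 and 0.0560), and with totals that leave out mitochondrial rRNA (-0.11; DESeq2 adjusted p = 0.706).

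Esrra (ENSMUSG00000024955.13, chromosome 19, 6910977 to 6921813, minus strand), which encodes ERRα, had counts of 1632, 1719, 1625 and 1507 in the wildtype and 1416, 1366, 1718 and 1298 in the knockout. Knockout replicate 3 was as high as the highest wildtype, and the other 3 knockouts were below every wildtype library. The log2 fold change was -0.16 (95% interval -0.39 to 0.06; DESeq2 adjusted p = 0.291). It was -0.25 without knockout replicate 3 and passed (DESeq2 adjusted p = 0.0118), it was -0.47 and passed with total counts (DESeq2 adjusted p = 9.98e-06), and it turned to 0.26 and passed as higher with totals that leave out mitochondrial rRNA (DESeq2 adjusted p = 0.0105). Esrra shares 73 bases with Trmt112 on the opposite strand, and the counting was set for reverse-stranded libraries.

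Esrrb (ENSMUSG00000021255.17, chromosome 12, 86361117 to 86521628, plus strand) encodes ERRβ, known for its part in embryonic stem cells. Its counts were 485, 559, 464 and 485 in the wildtype and 432, 304, 354 and 454 in the knockout. Groups did not overlap, with knockout replicate 4 just below wildtype replicate 3. The log2 fold change of -0.37 (SE 0.154) was at the threshold, with an adjusted p of 0.0503 by DESeq2 and 0.0465 by edgeR. It was -0.42 without knockout replicate 1 and -0.46 without knockout replicate 4 and passed each time (DESeq2 adjusted p = 0.0342 and 0.0198), and it turned to 0.06 with totals that leave out mitochondrial rRNA (DESeq2 adjusted p = 0.807).

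Nrf1 (ENSMUSG00000058440.14, chromosome 6, 30047988 to 30153458, plus strand) had counts of 327, 298, 333 and 293 in the wildtype and 298, 209, 415 and 255 in the knockout. The knockouts lay on both sides of the wildtype libraries, with replicate 2 lowest and replicate 3 highest. The log2 fold change was -0.09 (95% interval -0.49 to 0.31; DESeq2 adjusted p = 0.781). Without knockout replicate 2 it was 0.05, and with totals that leave out mitochondrial rRNA it was 0.32, with DESeq2 adjusted p = 0.898 and 0.149.

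**Figure D2:**
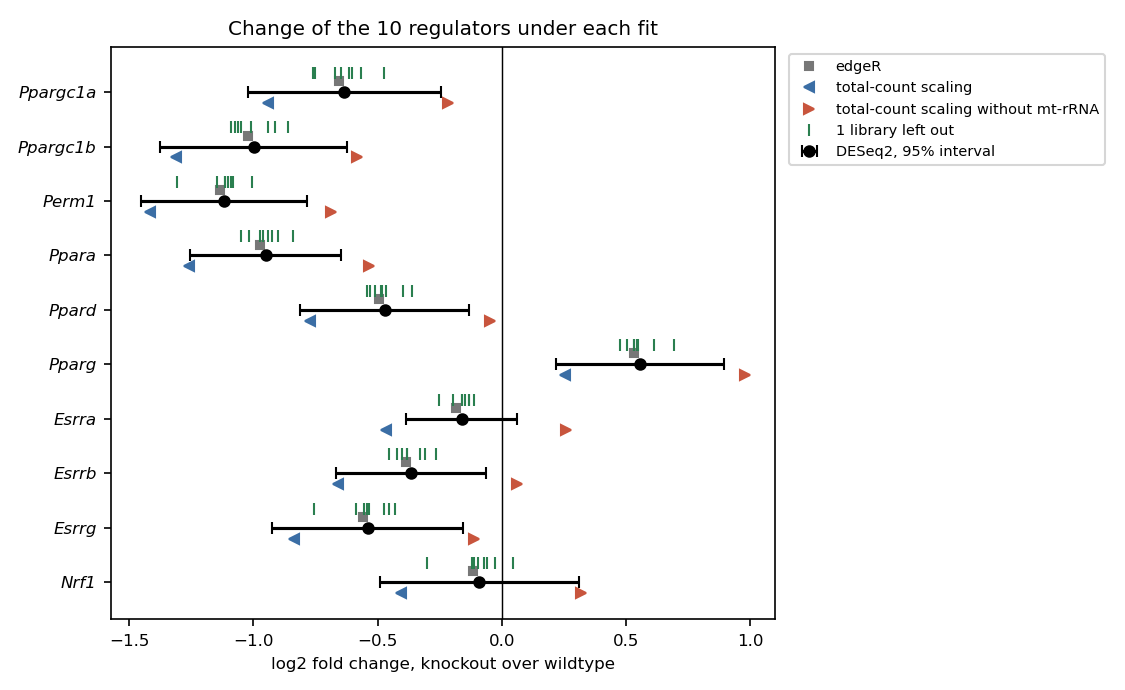
Log2 fold change of each regulator, knockout over wildtype (x axis), with the DESeq2 95% interval (black), the edgeR estimate (grey), the estimates under total counts (blue triangles) and totals that leave out mitochondrial rRNA (red triangles) and those with 1 library left out (green ticks). The estimates of Perm1, Ppargc1b, Ppara, Ppargc1a, Ppard and Esrrg stay below 0 and those of Pparg above 0 in every fit shown. Esrra, Esrrb and Nrf1 cross 0 under totals without mitochondrial rRNA, and Nrf1 also without knockout replicate 2.

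Levels were compared between genes by TPM, a scale that corrects for transcript length. Because mitochondrial rRNA takes part of every TPM total, TPM levels were ordered within each group only. In the wildtype Perm1 was highest with 51.4 TPM, then came Esrra with 26.4, Ppargc1a with 19.7, Ppara with 9.45, Ppargc1b with 7.41, Esrrg with 6.26, Nrf1 with 4.01, Esrrb with 3.50, Pparg with 2.46 and Ppard with 2.27. The ranges over the 4 libraries overlapped for the neighbours Ppara and Ppargc1b, Ppargc1b and Esrrg, Nrf1 and Esrrb, and Pparg and Ppard. In the knockout Perm1 (21.5 ± 5.49 TPM, SD, n = 4) and Esrra (21.4 ± 1.48) were level with each other, Ppargc1a had 11.5, and the genes from Ppara with 4.42 down to Pparg with 3.29 each overlapped the next. Esrrb with 2.48 and Ppard with 1.48 came last.

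Within the PPAR family the make-up was different in the 2 groups. Ppara made up 66.6% ± 0.618 of the summed TPM of the family in the wildtype and 48.0% ± 3.82 in the knockout, Pparg 17.4% ± 2.54 and 35.8% ± 1.5, and Ppard 16% ± 2.20 and 16.2% ± 2.82 (SD, n = 4 each). The ratio of Ppara to Pparg, which does not depend on the scaling of a library, was 3.80, 4.84, 3.33 and 3.66 in the wildtype and 1.27, 1.38, 1.54 and 1.18 in the knockout. The groups were far apart, by -1.53 on the log2 scale, which gave the smallest p that 70 assignments allow (exact permutation test, two-sided, p = 0.0286, or 0.143 adjusted over 5 ratios). The ratio of Ppara to Ppard differed by -0.49 (exact permutation p = 0.0857, adjusted 0.214). With 5 ratios, a single ratio at the smallest exact p cannot reach 0.05 after adjustment.

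In the PGC-1 pair Ppargc1a made up 72.7% ± 3.61 of the summed TPM in the wildtype and 76.9% ± 3.90 in the knockout, and the log2 ratio of Ppargc1a to Ppargc1b differed by 0.33 (exact permutation p = 0.171, adjusted 0.25). Among the ERRs Esrra made up 73.0% ± 1.36 and 77.1% ± 5.12, Esrrg 17.3% ± 0.958 and 14.0% ± 3.81, and Esrrb 9.67% ± 0.426 and 8.89% ± 1.76. The log2 ratio of Esrra to Esrrg differed by 0.41 (exact permutation p = 0.2, adjusted 0.25). The ratio of Ppargc1a to Perm1 was 0.368 to 0.405 in the wildtype and 0.335, 0.716, 0.884 and 0.373 in knockout replicates 1 to 4, so that replicates 2 and 3 were above the wildtype and replicates 1 and 4 near it (exact permutation p = 0.4, adjusted 0.4).

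**Figure D3:**
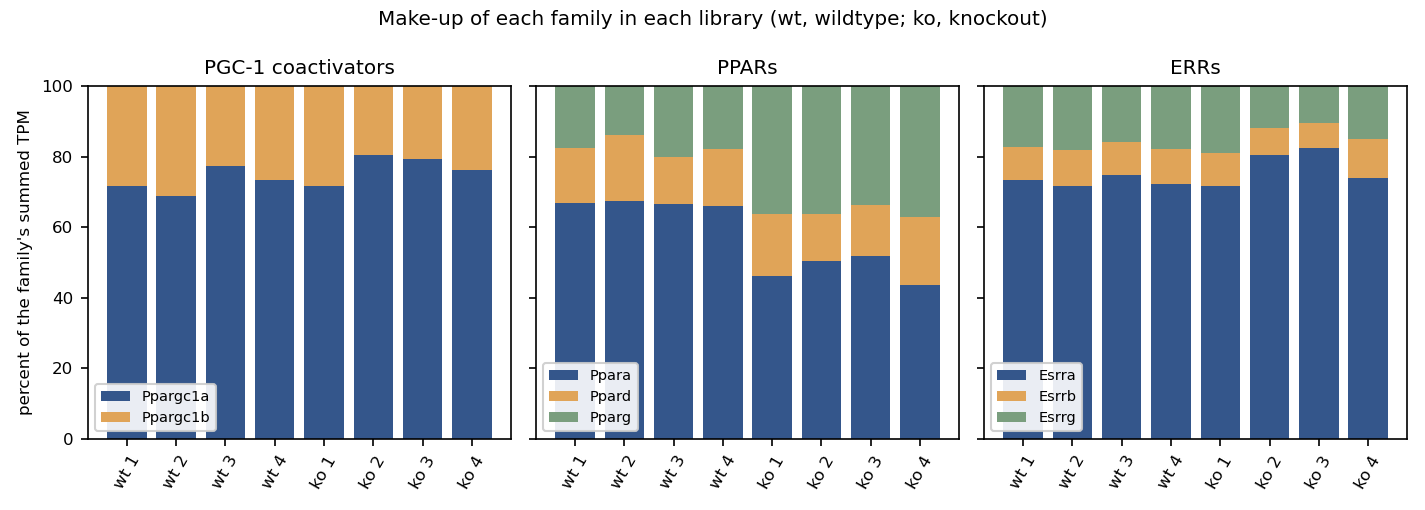
Share of each member in the summed TPM of its family (y axis, percent) in each of the 8 libraries (x axis) for the PGC-1 coactivators, the PPARs and the ERRs. Pparg takes 33.7% to 37.1% of the PPAR sum in every knockout library and 13.9% to 20% in every wildtype library.

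The order of the knockout libraries differed between regulators. Knockout replicate 1 had the highest of the 4 knockout counts for 5 of the 10 regulators (50%, against 27.1% of all 10441 genes at their level), among them Perm1 and Esrrg, and the lowest for 0. Replicate 3 was highest for 4 (40%, near the 41.6% of all such genes), among them Ppara, Esrra and Nrf1, and lowest for 1, which was Perm1. Replicate 2 was highest for 0 and lowest for 4 (40%, against 24.8%), and replicate 4 was highest for 1, Esrrb, and lowest for 5 (50%, against 22.6%).

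Genes with the most similar profile over the 8 libraries were sought for Ppargc1a, Ppara and Esrra among 10440 other genes, by the root mean square difference of the centred log2 counts. For Ppara these were Rarb, a retinoic acid receptor (0.0811), Trpm4, a cation channel (0.0967), and Sbk1, a kinase (0.111), beside a median of 0.576 over all genes. For Ppargc1a they were Sbk1 (0.132), Ednra, an endothelin receptor (0.134), and Tob2 (0.136), beside a median of 0.516. For Esrra they were Fbxo3 (0.0360), Cyth1 (0.0450) and Qdpr (0.0452), beside 0.301. Their log2 fold changes, like that of Esrra, turned positive with totals that leave out mitochondrial rRNA. That scaling raised the median over genes, so this follows from their choice by profile and is no further likeness.

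The partners that PGC-1 and nuclear receptors work with changed in both directions. Of 16 coactivators and corepressors tested, 2 were higher and 7 lower (43.8%, against 21% of genes with a mean of at least 100 counts and 15.5% of all genes), with a median log2 fold change of -0.15. With 1 library left out, 5 or 6 were called lower, and with totals that leave out mitochondrial rRNA 6 were higher and 2 lower. Lpin1, a phosphatidate phosphatase that also serves PGC-1α and PPARα as a coactivator, fell from 4439 to 1577 mean normalised counts (log2 fold change -1.49, SE 0.198; DESeq2 adjusted p = 1.29e-12). The acetyltransferases Crebbp and Ep300 fell by 0.50 each on the log2 scale. The 2 that rose, Prmt1 (0.83) and Carm1 (0.65), are arginine methyltransferases that act on PGC-1α among other proteins. Pprc1, the third PGC-1 family gene, had a log2 fold change of 0.19 (SE 0.261; DESeq2 adjusted p = 0.633).

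Among 14 other nuclear receptors of metabolism 0 were higher and 4 were lower by DESeq2 (28.6%, against the same 21% and 15.5%), with a median of -0.35, and with totals that leave out mitochondrial rRNA 2 were higher and 1 lower. By edgeR 0 were higher and 5 lower, and 0 and 5 had an unadjusted p under 0.05 in DESeq2. Thrb, a thyroid hormone receptor, fell from 557 to 253 (log2 fold change -1.14, SE 0.112; DESeq2 adjusted p = 2.79e-22). The RXR partners of the PPARs fell in part, Rxrg by 0.63 and Rxra by 0.54, while Rxrb had -0.19 (DESeq2 adjusted p = 0.281). Nr1d1, a receptor of the circadian clock, fell by 0.93. With totals that leave out mitochondrial rRNA, Rxrg (-0.20) and Rxra (-0.12) did not pass, with DESeq2 adjusted p = 0.212 and 0.492.

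Of 25 genes known to act upstream of Ppargc1a or on its protein, 4 were higher and 6 lower (24%, near the 21% of genes with a mean of at least 100 counts), with a median of -0.15, and with totals that leave out mitochondrial rRNA 11 were higher and 2 lower. These calls depended on single libraries, since 5 or 6 genes were called when wildtype replicate 1, 2, 3 or 4 or knockout replicate 2 or 4 was left out. Prkab2, a regulatory subunit of the energy sensor AMPK, rose from 933 to 2533 (log2 fold change 1.44, SE 0.176; DESeq2 adjusted p = 7.08e-15). The other 3 that rose were Prkag2 (0.48), Ppp3ca (0.24) and Camk4 (1.24), the last from a mean of 11.2 counts. By edgeR 2 of the list were higher and 7 lower, and Prkag2 and Ppp3ca were not called (adjusted p = 0.0507 and 0.0581). Fbxw7, part of a ubiquitin ligase, fell by 1.21 and Mapk14, the kinase p38α, by 0.86, and Crtc3, Foxo1, Mef2c and Tfeb also fell. The catalytic AMPK subunits Prkaa1 and Prkaa2 had 0.19 and -0.15, with DESeq2 adjusted p = 0.227 and 0.249.

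The target genes of these regulators were counted next, and their counts moved both with the scaling and when knockout replicate 3 was left out. Of the 36 PPAR targets listed, 32 were tested, 4 were higher and 8 lower (25% of those tested, where 21% of genes with a mean of at least 100 counts and 15.5% of all genes were lower), with a median of -0.10, and with totals that leave out mitochondrial rRNA 14 were higher and 5 lower. Ech1 and Cpt2, both of fatty acid oxidation, fell by 1.24 and 1.14, with DESeq2 adjusted p = 7.08e-11 and 1.53e-18, and Lpl, which releases fatty acids from lipoproteins, fell by 1.14. Those called higher were Fgf21, Acot2, Cpt1a (0.65) and Plin2 (0.75). Cpt1a and Plin2 were not called by edgeR (adjusted p = 0.0754 and 0.0886), and without knockout replicate 3 they had log2 fold changes of 0.30 and 0.23 (DESeq2 adjusted p = 0.158 and 0.163). Fgf21, a hormone, had at most 3.21 normalised counts in the wildtype and 63.9 to 232 in the knockout. Acot2, a mitochondrial thioesterase, had 966 to 1315 counts in the wildtype, 1772 to 2648 in knockout replicates 1, 2 and 4 and 7000 in replicate 3. Its log2 fold change was 1.53 with all 8 libraries and 0.86 without knockout replicate 3, with DESeq2 adjusted p = 0.00703 and 4.14e-07. Reads may be shared with its near-identical neighbour Acot1, and the effect on its count was not tested.

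Knockout replicate 3 had the highest of the 4 knockout counts for 29 of the 31 PPAR targets with a mean of at least 100 counts, which is 93.5%, against 41.6% of all 10441 genes at that level. The same held for 75% of the ERR targets and 76.5% of the NRF1 and NRF2/GABP axis. Against the wildtype mean, the median PPAR target stood at 0.53 on the log2 scale in knockout replicate 3 and at -0.35, -0.42 and -0.42 in replicates 1, 2 and 4. Fabp3, which carries fatty acids in heart cells, had 83582 counts in replicate 3, 32424 to 38365 in the other knockouts and 33695 to 35086 in the wildtype. Pdk4, a kinase that holds back glucose oxidation, had 17191 counts in replicate 3, 5151 to 6039 in the other knockouts and 3634 to 5000 in the wildtype. In the same library Ppara had 544 counts and Perm1 2421, both below every wildtype library, while Nrf1 (415) was above every wildtype library and Esrra (1718) was level with the highest. Ppara, Ppargc1a, Esrra and Nrf1 had their highest knockout count there, and Perm1 its lowest.

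Without knockout replicate 3, 20 of 34 tested PPAR targets (58.8%) were called lower and 3 higher, where 23.3% of genes with a mean of at least 100 counts and 16.2% of all genes tested were called lower. The median of the list was then -0.44. Cd36, a fatty acid transporter, went from a log2 fold change of -0.03 to -0.36, and Ucp3, a mitochondrial uncoupling protein, from -0.97 to -1.57. By DESeq2 their adjusted p went from 0.934 to 8.92e-06 and from 0.118 to 1.78e-10. Cpt1b, the muscle enzyme that admits fatty acids to mitochondria, went from 0.17 to -0.16, with DESeq2 adjusted p = 0.620 and 0.184. With each library left out in turn, 8 to 23 of the PPAR targets were called in either direction. Knockout replicate 3 stood out by its high counts of these same targets, so a lower list without it follows in part from that choice.

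ERR targets leaned lower with and without that library, but with totals that leave out mitochondrial rRNA 9 were higher and 4 lower. Of 24 tested, 0 were higher and 11 lower by DESeq2 (45.8%, against 21% of genes with a mean of at least 100 counts), 0 and 13 by edgeR, and 1 and 15 at an unadjusted p under 0.05 in DESeq2. The list shares Acadm and Pdk4 with the PPAR targets, Cycs with the NRF1 and NRF2/GABP axis, and Ppara with the 10 regulators. The median was -0.27, and the lower ones included Kcnq1, a potassium channel subunit (-0.90), Mb, myoglobin (-0.80), and Ppara itself. Enzymes of the citric acid cycle were among them, with Idh3b at -0.53, Sdha at -0.50 and Fh1 at -0.49, while Ogdh and Idh3a had -0.01 and -0.03. Without knockout replicate 3 the counts were 1 higher and 18 lower (75%, against 23.3% of genes with a mean of at least 100 counts), and with total-count scaling they were 0 and 23. With each library left out in turn, 10 to 19 of the list were called.

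Of 18 genes of the NRF1 and NRF2/GABP axis, 1 was higher and 6 lower (33.3%, against 21% of genes with a mean of at least 100 counts), with a median of -0.19, and with totals that leave out mitochondrial rRNA 8 were higher and 1 lower. Cox6c, a subunit of cytochrome oxidase, fell by 0.62, Sdhb by 0.34 and Gabpa, a subunit of NRF2, by 0.29. Tfb1m, a mitochondrial rRNA methyltransferase, fell by 0.84, from 99.3 to 55.4 mean counts, and Polrmt, the mitochondrial RNA polymerase, by 0.59. The one that rose was Tomm20, an import receptor (0.52, or 0.29 without knockout replicate 3, DESeq2 adjusted p = 0.0253 and 0.0356). Tfam, which packages mitochondrial DNA, had -0.05 (DESeq2 adjusted p = 0.885). Without knockout replicate 3, 1 was higher and 12 lower (66.7%, against 23.3%), without wildtype replicate 4, 0 were higher and 2 lower, and without wildtype replicate 1, 0 and 3. The calls of Sdhb and Gabpa were lost without wildtype replicate 1 or 4 or knockout replicate 2 or 4 (DESeq2 adjusted p = 0.0508 to 0.0648 and 0.0723 to 0.0821), that of Gabpa was also lost with a replicate block (DESeq2 adjusted p = 0.0616), and the log2 fold changes turned to 0.08 and 0.13 with totals that leave out mitochondrial rRNA.

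**Figure D4:**
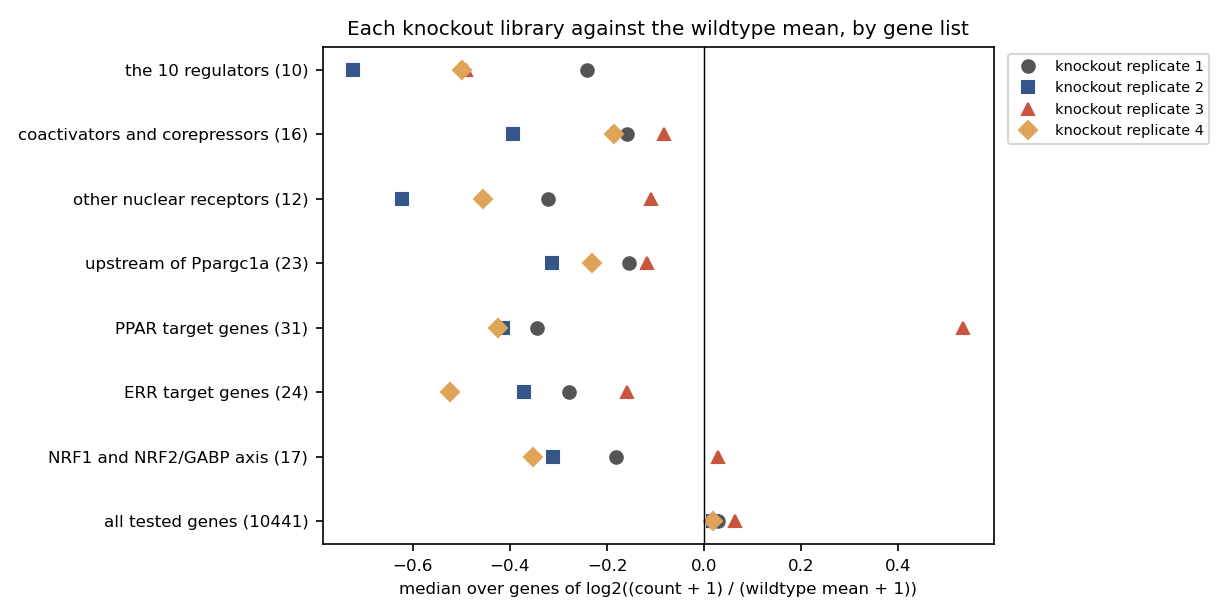
Median over the genes of each list of the log2 ratio of a knockout library to the wildtype mean (x axis), for genes with a mean of at least 100 counts (number in brackets), 1 marker per knockout library. Knockout replicate 3 stands at 0.53 for the PPAR targets, where the other 3 knockouts lie between -0.42 and -0.35, and for the 10 regulators it lies among the others.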

How the data were processed

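Total RNA of mouse hearts was sequenced by the authors on an Illumina HiSeq instrument as paired-end, reverse-stranded libraries made with random primers. Per the labels and the study's methods, the authors obtained the expected counts and TPM values with RSEM 1.2.31 and Bowtie2 on GENCODE M13 transcripts with added mitochondrial sequences. The gene lengths and effective lengths deposited by the authors are other values, in bases. RSEM divides reads between genes and transcripts they could come from, so the deposited expected counts are not all whole numbers. The authors' deposited table of their own comparison (mean signal, log2 fold change, p-value and adjusted p-value) was not used, nor was a deposited table of normalised counts, whose 8 columns match no sample label.

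Samples were grouped by their titles. Expected counts were rounded and fitted with DESeq2 1.42.0 in R 4.3.3 over all 8 libraries and all genes, with a term for genotype alone, effective lengths as an offset and size factors by the median of ratios. Fold changes were not shrunk. P values were adjusted by Benjamini-Hochberg at 0.05, and normalised counts are those of this fit. Ratios within a library were compared on TPM by exact permutation over 70 assignments. A pseudocount of 1 was added before other logarithms. Between libraries of a group the chi-square per degree of freedom was 4.40 to 48.3, so that no pair agreed within sampling noise and each counted as 1 sample. Depth was 35218541 to 47743376 expected counts per library. Alternatives tried were a replicate block, total counts, totals that leave out mitochondrial rRNA, size factors taken from nuclear genes only, the quasi-likelihood test of edgeR 4.0.16 with TMM, a fit without the length offset, a filter that keeps genes with 10 or more counts in 4 libraries, and dropping each library in turn. Counts of called genes without each library were added after the data had been seen. The members and the gene and marker lists were chosen with earlier results of these data known. In each list the 3 genes with the largest change past the threshold, no overlap between groups and a mean of at least 100 counts were named, except that 1 of them is not reported here; other list genes were picked for their function after their values had been seen. Symbols and coordinates came from GENCODE M21 (GRCm38) and upstream sequences from RefSeq, where 9 of the 10 genes were used. Scripts were tested on simulated data.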

Additional observations from a re-analysis of the deposited data

Results flagged for a closer look

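In 66 groups of 4 libraries a single library was set against the other 3 by the gap that separates it, and 5 stood apart, where chance gives about 1 in 20, or 3.3. Knockout replicate 4 had 196.6 normalised counts of Pparg, and the other knockouts had 228.8 to 232.6. Knockout replicate 3 had 7000 counts of Acot2, and the others had 1772 to 2648. Knockout replicate 2 had 504.3 counts of Lrpprc, and the others had 597.4 to 605.4. Wildtype replicate 3 had 4957 counts of Lpin1 against 4248 to 4277 in the other wildtype libraries, and wildtype replicate 1 had 7861 counts of Cox6c against 7385 to 7404. The gap of Acot2 goes with the other PPAR targets in the same library, and the cause was not tested.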

How the results depend on the processing

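Perm1, Ppargc1b and Ppara were called lower under every alternative run. Totals that leave out mitochondrial rRNA changed many results. The log2 fold change was -0.22 for Ppargc1a, -0.048 for Ppard, -0.11 for Esrrg, -0.20 for Rxrg, -0.12 for Rxra and -0.17 for Tob2, none of them past the threshold. It turned to 0.26 for Esrra, 0.061 for Esrrb, 0.32 for Nrf1, 0.080 for Sdhb, 0.13 for Gabpa, 0.27 for Fbxo3, 0.27 for Cyth1 and 0.34 for Qdpr. Total-count scaling gave 0.26 for Pparg, no longer called, and -0.47 for Esrra and -0.66 for Esrrb, now called. Ppard was not called without the length offset (-0.18), and Esrrb was called by edgeR (-0.39), without the offset (-0.35) and with the filter on low counts (-0.37). Leaving out 1 library at a time gave -0.76 to -0.48 for Ppargc1a, -0.54 to -0.36 for Ppard, 0.48 to 0.69 for Pparg, -0.25 to -0.11 for Esrra, -0.46 to -0.27 for Esrrb, -0.76 to -0.43 for Esrrg and -0.30 to 0.045 for Nrf1. Between 5 and 8 of the 10 regulators were then called, and 5528 to 6969 of all genes. With 1 library left out, the ratios cannot give an exact p under 0.0571.

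The replicate numbers did not pair the libraries, since the correlations of same-numbered deviations were -0.0138, -0.0445, -0.0782 and 0.0382. With a replicate block, 5496 genes and 6 of the 10 regulators were called, and Ppard and Gabpa were not (-0.47 and -0.30, DESeq2 adjusted p = 0.109 and 0.0616). For the paired ratios the smallest exact p is 0.125.

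Each group had 4 animals, and the lowest-count regulators, Ppard and Pparg, rested on 99 to 222 reads per library. Gene-level counts cannot tell the start sites of Ppargc1a or Pparg apart. RNA levels say nothing of protein or activity.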
